A study of Gallus gallus with 9 samples.

Results

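NANOG, Pou5f3, SOX2 and KLF4 are 4 of the 24356 genes counted in a whole-transcriptome sequencing (WTS) study of chicken germ-line and embryonic cells. They were chosen by name as core factors of pluripotency and not by a rule on their measured values, but earlier results of these data were known. The study itself places NANOG, Pou5f3 and SOX2 in the core network and lists KLF4 apart as pluripotency-associated. The study compared 3 kinds of White Leghorn cells, with 3 replicates each. The PGCs (primordial germ cells, the precursors of sperm and egg) came from embryonic gonads at HH stage 28 (embryonic day 6), from which cells carrying the antigen SSEA-1 were sorted with magnetic beads, and a replicate drew on 484 to 684 gonads. The EGK.X blastoderms are the whole embryos of freshly laid eggs, and 10 of them were pooled for a replicate. The CEFs (chicken embryonic fibroblasts) were grown to passage 2 from 5 embryos a replicate, at the stage of the PGCs, after the internal organs and limbs had been removed. No group received a treatment, and PGCs and blastoderms were not cultured before the RNA was taken, so cell type and culture cannot be told apart between CEFs and the other groups, nor cell type and stage between the blastoderms and the other groups. The sorted PGCs are an enriched population defined by 1 antigen.

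Pluripotent cells keep the capacity to form all embryonic tissues through a small network of transcription factors that bind many of the same enhancers and maintain each other's transcription. In this network a POU-family factor and the HMG-box factor SOX2 bind DNA side by side, and the homeodomain factor NANOG stabilizes the undifferentiated state. In mammals the POU factor is OCT4 (POU5F1), and birds carry the related gene Pou5f3. KLF4 is a zinc-finger factor of the Krüppel-like family that is known in mouse for supporting naive pluripotency and, in mammals, for its use with OCT4, SOX2 and MYC in reprogramming fibroblasts. SOX2 and KLF4 also act outside this network, SOX2 in neural progenitors and KLF4 in epithelia. Avian germ cells are known to keep transcribing NANOG and Pou5f3 after the embryo has formed its germ layers.

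All 4 genes are protein coding and lie on the minus strand of GRCg6a, the build of the study's annotation. NANOG (ENSGALG00000027772) lies on chromosome 1, from base 75593243 to 75596024. Pou5f3 (ENSGALG00000031482) lies on chromosome 17, from base 823420 to 837030, and has the longest span of the 4, at 13611 bases. SOX2 (ENSGALG00000043460) lies on chromosome 9, from base 17025522 to 17026706, and KLF4 (ENSGALG00000026928) lies on the sex chromosome Z, from base 55788643 to 55792227. In the RefSeq annotation of the later build GRCg7b, SOX2 shares its position with the long noncoding gene LOC107054087 and KLF4 shares its position with the long noncoding gene LOC121108643, whereas NANOG and Pou5f3 overlap no other gene. The libraries were stranded, but the strand setting of the counting was not given in the sources used here, so reads of SOX2 and KLF4 and those of the overlapping genes may not be fully separated. The study also designed RT-qPCR primers for NANOG, and this pair is shown because it marks the transcript that was amplified. It was used in cultured cells with and without hydrogen peroxide, each cell type relative to its own control. The difference of NANOG between the sequenced groups was not checked by RT-qPCR in the study.
NANOG forward primer: agaagtacctcagcccccat
NANOG reverse primer: agggaagccctggtgaaatg

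A library held between 29512715 and 67475925 counts on genes, with the shallowest library among the PGCs. Levels are given as normalized CPM, which are counts scaled to the library size adjusted with TMM factors (0.739 to 1.26). EGK.X replicate 3 stood apart from the other blastoderm libraries. Among 12676 genes with a mean of at least 1 normalized CPM in the blastoderms, it was more than 2-fold above both other replicates in 628 genes and more than 2-fold below both in 691, against 9 and 28 genes for replicate 1 and 29 and 16 for replicate 2. The SOX2 fold changes, shares, variation and count ratios that rest on it are therefore also given without it. The likeness of SOX2 to other genes uses all 9 libraries. Of the germ-line genes that the study's tables pair with identifiers, SYCP3, a component of the meiotic chromosome axis, had 5.26, 5.61 and 4.68 normalized CPM in PGCs, against 1.74, 1.63 and 2.51 in EGK.X blastoderms and 2.60, 2.27 and 2.66 in CEFs. The meiotic recombinase gene DMC1 stayed under 0.6 normalized CPM in all 9 libraries and did not separate PGCs from CEFs. It had 0.498, 0.351 and 0.376 normalized CPM in PGCs, 0.118 to 0.303 in blastoderms and 0.579, 0.280 and 0.571 in CEFs. These DMC1 values rest on 8 to 35 counts a library. Other markers of germ cells, fibroblasts or gonadal somatic cells carry no names in these tables and were not analysed here.

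NANOG was abundant in EGK.X blastoderms, lower in PGCs and nearly absent from CEFs. It had 150.2, 146 and 140.4 normalized CPM in the 3 PGC libraries (10558, 5421 and 8216 counts). In the blastoderms it had 683, 671 and 567 normalized CPM (45078, 48462 and 38602 counts). In CEFs it was covered by 2 counts in replicate 1 (0.0399 normalized CPM) and by 0 counts in replicates 2 and 3. For replicates 2 and 3 the upper limits of the exact 95% counting intervals were 0.115 and 0.0878 normalized CPM. No 2 groups overlapped, and the highest PGC value was 1.07-fold above the lowest, against 1.20-fold in blastoderms. These upper limits, like the count intervals given below, cover counting error only. Separation of groups was common among the 22698 genes with any count. Every blastoderm library was above every CEF library in 31.6% of them, and every PGC library above every CEF library in 34.5%. Every PGC library was below every blastoderm library in 30.3%. The share that separated all 3 groups at once was not computed.

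Pou5f3, the avian POU factor, showed the same order of groups with a measurable level in fibroblasts. PGCs had 197, 207 and 157 normalized CPM, blastoderms had 446, 594 and 620.5, and CEFs had 9.14, 8.11 and 10.5. The CEF values rest on 458, 261 and 443 counts, so Pou5f3 was detected in each fibroblast library, unlike NANOG. The groups did not overlap, and the shares over all genes given with NANOG apply here too. In the blastoderms NANOG was lowest in replicate 3, whereas Pou5f3 was lowest in replicate 1.

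SOX2 had far fewer counts than NANOG and Pou5f3 in PGCs and blastoderms, without correction for gene length, and had another pattern. PGCs had 3.51, 3.59 and 3.14 normalized CPM (247, 133 and 184 counts). Blastoderms had 1.53, 1.93 and 5.95 normalized CPM (101, 139 and 405 counts). CEFs had 0.140, 0.0622 and 0 normalized CPM, from 7, 2 and 0 counts. The PGC values lay inside the range of the blastoderms, since replicates 1 and 2 of the blastoderms were below every PGC library and replicate 3 was above them all. All PGC and blastoderm libraries were above all CEF libraries.

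KLF4 was the only member of the 4 with a CEF level within 3-fold of the blastoderm level. It had 3.56, 4.34 and 4.46 normalized CPM in PGCs (250, 161 and 261 counts). In blastoderms it had 5.67, 7.70 and 8.02 normalized CPM (374, 556 and 546 counts), and in CEFs it had 2.62, 2.52 and 2.47 (131, 81 and 104 counts). The 3 groups did not overlap, with blastoderms highest and CEFs lowest, and the shares given with NANOG again apply. The CEF replicates spanned a factor of 1.06.

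The sum of the 3 group means shows how each factor was distributed over the cell types. PGCs held 18.5% of the summed means of NANOG, blastoderms 81.5% and CEFs 0.00169%. For Pou5f3 the shares were 25.0% in PGCs, 73.8% in blastoderms and 1.24% in CEFs. For SOX2 they were 51.6%, 47.4% and 1.02% in the same order, and 65.5%, 33.2% and 1.29% without EGK.X replicate 3. For KLF4 they were 29.9%, 51.7% and 18.4%. Apart from counts and their ratios, levels were not compared between genes, because the tables give no transcript lengths.

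**Figure D1:**
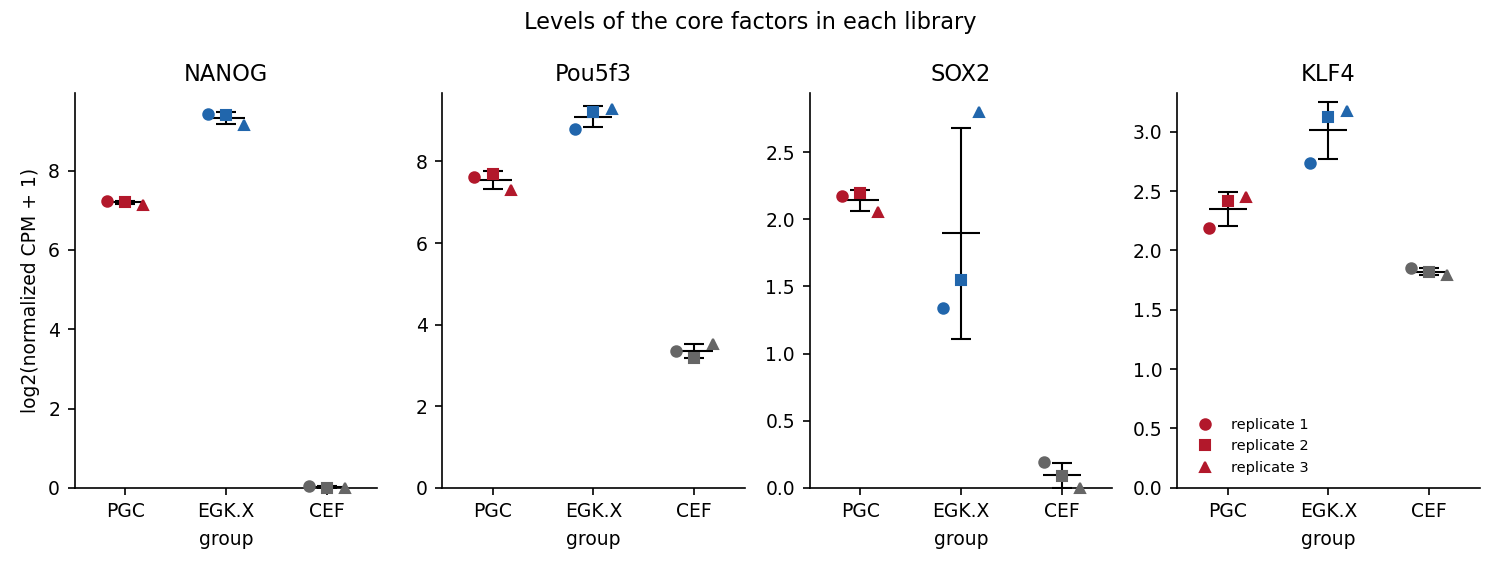
Level of each factor in each library, as log2(normalized CPM + 1) on a separate vertical axis for each gene. Points are single libraries (circle, square and triangle for replicates 1, 2 and 3), and the bar with whiskers is the mean ± SD of 3 libraries on that scale. NANOG, Pou5f3 and KLF4 are highest in EGK.X blastoderms, and the SOX2 point of EGK.X replicate 3 (5.95 normalized CPM) lies above all other SOX2 points.

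The comparison of EGK.X blastoderms with CEFs asked which pluripotency factors mark the early embryo. All 4 factors were higher in the blastoderms, where 23.1% of the 22698 genes tested were called higher (quasi-likelihood test of edgeR, with Benjamini-Hochberg adjusted p across the whole table). A gene was called where its adjusted p was below 0.05 and its log2 fold change exceeded 1 in size. NANOG averaged 640.5 ± 63.9 normalized CPM in blastoderms and 0.0133 ± 0.0231 in CEFs (SD, n = 3 each). From the summed counts of 132142 in blastoderms and 2 in CEFs, the ratio was 39815, with an exact 95% counting interval of 11022 to 328770. The fitted log2 fold change was 15.10 ± 0.33 (SE, adjusted p = 5.06e-11), which depends on the prior count of the fit, and only 1 gene of all tested had a larger fitted rise. The SE of this NANOG fold, derived from the F statistic, understates its error, as the counting interval from 2 CEF counts shows. Pou5f3 averaged 553 ± 93.7 in blastoderms and 9.27 ± 1.22 in CEFs, a log2 fold change of 5.90 ± 0.20 or 59.7-fold (SE, adjusted p = 4.39e-10).

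SOX2 rose in the blastoderms by 5.42 ± 0.77 on the log2 scale, or 42.9-fold (SE, adjusted p = 5.98e-05). The mean was 3.13 ± 2.44 normalized CPM in blastoderms and 0.0673 ± 0.0700 in CEFs. Without EGK.X replicate 3 the log2 fold change was 4.56 (adjusted p = 4.13e-05), and without CEF replicate 1, which holds 7 of the 9 CEF counts, it was 6.72. KLF4 rose least, by 1.49 ± 0.26 or 2.81-fold (SE, adjusted p = 0.000289), with means of 7.13 ± 1.28 in blastoderms and 2.54 ± 0.0721 in CEFs. All 4 factors had every blastoderm library above every CEF library, as did 31.6% of the genes tested. In bulk RNA, fewer cells of a type and less RNA per cell cannot be told apart in these and the following comparisons.

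The comparison of PGCs with CEFs asked what the germ line holds relative to cultured fibroblasts derived from embryos of the same stage. NANOG, Pou5f3 and SOX2 were higher in PGCs and KLF4 was not called, so 3 of 4 factors were called higher, where 23.7% of the genes tested were. NANOG averaged 146 ± 4.91 normalized CPM in PGCs, against the 2 counts of CEFs, and the ratio from the 24195 summed counts of PGCs was 9064 (exact 95% counting interval 2509 to 74849). The fitted log2 fold change of NANOG was 12.96 ± 0.33 (SE, adjusted p = 6.92e-11), and 53 genes had a larger one. Here too the SE understates the error that comes from 2 CEF counts. Without CEF replicate 1, the only fibroblast library with any NANOG count, the fitted values were 15.99 in PGCs and 18.13 in blastoderms. Pou5f3 averaged 187 ± 26.6 in PGCs and 9.27 ± 1.22 in CEFs, a log2 fold change of 4.33 ± 0.19 or 20.2-fold (SE, adjusted p = 1.95e-09).

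SOX2 rose in PGCs by 5.55 ± 0.77 on the log2 scale, or 46.7-fold (SE, adjusted p = 5.2e-05), with means of 3.42 ± 0.238 normalized CPM in PGCs and 0.0673 ± 0.0700 in CEFs. Without CEF replicate 1 the value was 6.85. KLF4 averaged 4.12 ± 0.492 in PGCs and 2.54 ± 0.0721 in CEFs. Its log2 fold change of 0.70 ± 0.25 passed the adjusted p (0.0336) but not the fold threshold. The adjusted p exceeded 0.05 in each of the 6 fits that left out a PGC or CEF library, at 0.0535 to 0.108. With libraries scaled by their size alone, without TMM factors, KLF4 was called at 1.38 (adjusted p = 0.000696, range over the alternatives 0.000696 to 0.946, the highest from glmTreat, which tests against a log2 fold change of 1). Under that scaling the median over all genes was 0.73 for PGCs over CEFs, against 0.05 with TMM factors, and relative to these medians KLF4 stood at 0.65 under both. All 4 factors, KLF4 included, had every PGC library above every CEF library, as did 34.5% of the genes tested.

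**Figure D2:**
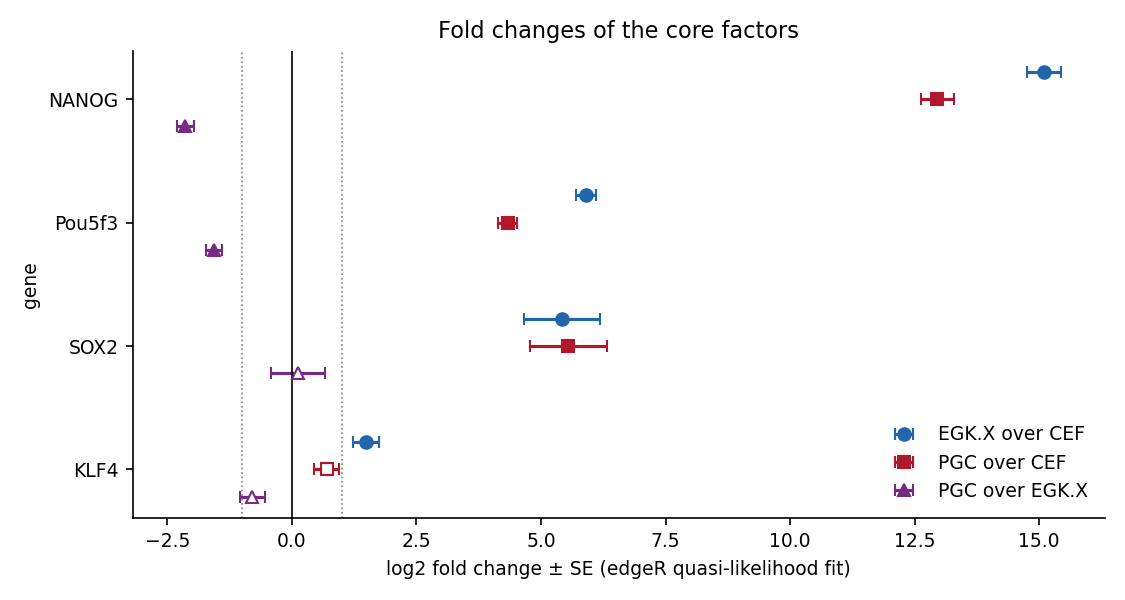
Log2 fold changes of the 4 factors with their SE in the 3 comparisons, from the edgeR quasi-likelihood fit over 9 libraries. Filled symbols passed both thresholds and open symbols did not, and the dotted lines mark log2 fold changes of -1 and 1. NANOG has the largest values against CEFs (15.10 and 12.96), which rest on 2 fibroblast counts, and KLF4 the smallest (1.49 and 0.70). The SE bars of NANOG against CEFs understate the counting error of those 2 counts.

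Between PGCs and EGK.X blastoderms the question was how the level of each factor differed. Here and elsewhere, rises and falls are differences between groups, and no change over time was measured. NANOG and Pou5f3 were lower in PGCs, and SOX2 and KLF4 were not called. Thus 2 of 4 factors were called lower, where 18.5% of the genes tested were. NANOG averaged 146 ± 4.91 normalized CPM in PGCs and 640.5 ± 63.9 in blastoderms, and fell by 2.14 ± 0.17 on the log2 scale, or 4.40-fold (SE, adjusted p = 4.51e-07). Pou5f3 averaged 187 ± 26.6 in PGCs and 553 ± 93.7 in blastoderms, and fell by 1.56 ± 0.17, or 2.96-fold (SE, adjusted p = 6.27e-06). Both calls held in each of the 9 fits that left out 1 library, with log2 fold changes of -2.22 to -2.09 for NANOG and -1.70 to -1.45 for Pou5f3.

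KLF4 had a log2 fold change of -0.79 ± 0.25 in PGCs (SE, adjusted p = 0.0174), which missed the fold threshold, and without PGC replicate 1 the adjusted p was 0.0796 (range over the alternatives 0.000341 to 0.815, the highest again from glmTreat). Every PGC library was below every blastoderm library. The same separation, with PGCs below, held for NANOG and Pou5f3 and for 30.3% of the genes tested. SOX2 averaged 3.42 ± 0.238 in PGCs and 3.13 ± 2.44 in blastoderms, with a log2 fold change of 0.12 ± 0.55 (SE, adjusted p = 0.876). Its direction hung on single blastoderm libraries. It was 0.98 without EGK.X replicate 3 (adjusted p = 0.0860, range over the alternatives 0.0860 to 1), -0.20 without replicate 1 and -0.15 without replicate 2, and it was called in none of these fits. The mean of the blastoderms without replicate 3 was 1.73 normalized CPM.

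**Figure D3:**
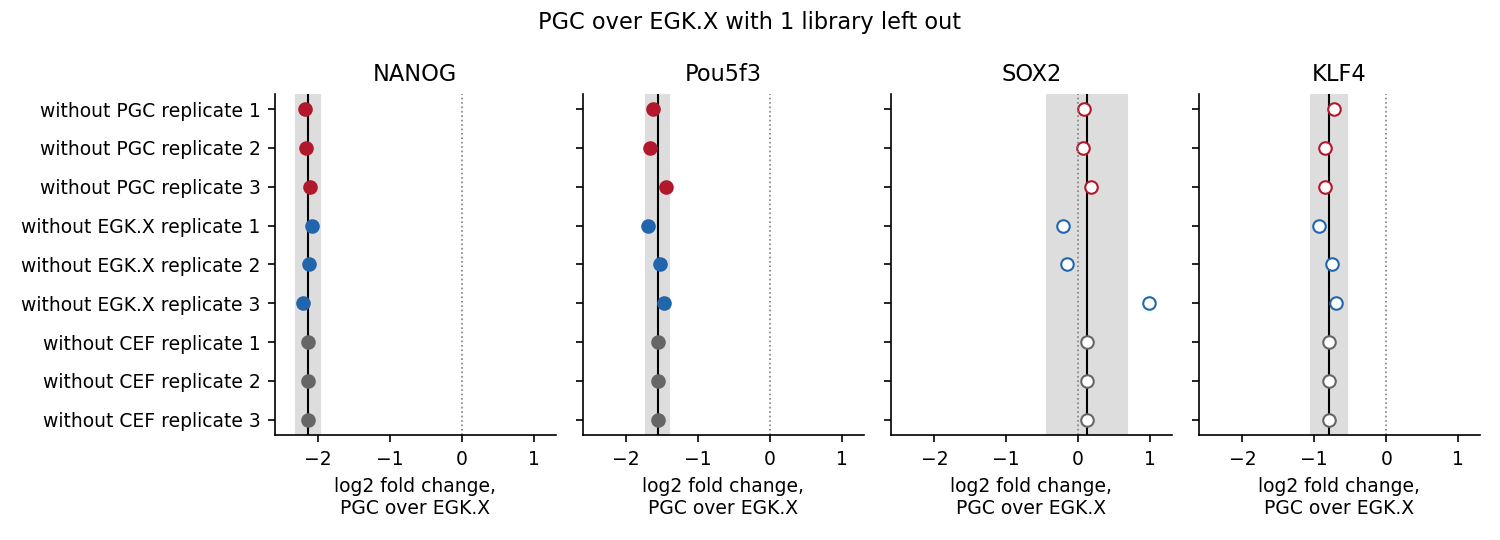
Log2 fold change of PGCs over EGK.X blastoderms for each factor when 1 of the 9 libraries is left out of the fit. The vertical line and grey band give the value ± SE with all libraries, filled points passed both thresholds and open points did not, and colours name the group of the library left out. NANOG and Pou5f3 stay called in all 9 fits, while SOX2 moves between -0.20 and 0.98.

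The spread between replicates differed among the factors. The biological coefficient of variation that the fit estimated was 0.136 for NANOG and 0.160 for Pou5f3, where the trend at their expression was 0.171 for each. KLF4 had 0.218, against a trend of 0.317. SOX2 had 0.477, against a trend of 0.356, and 11.1% of the genes tested had a higher ratio to the trend. Without EGK.X replicate 3 SOX2 had 0.231, against a trend of 0.307. The SOX2 level spanned a factor of 1.14 among the PGC libraries and a factor of 3.89 among the blastoderms. The 95% counting intervals of SOX2 in blastoderm replicates 1, 2 and 3 were 1.25 to 1.86, 1.62 to 2.27 and 5.38 to 6.56 normalized CPM, so replicate 3 lay beyond the counting error of the other replicates.

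SOX2 in EGK.X replicate 3 was 3.09-fold above the higher of the other replicates, and 60 of 12676 genes had a larger ratio. Among 147 genes that the study's tables name, SOX2 and the base excision repair genes MBD4 and NEIL3 exceeded 2-fold there. In the same library NANOG was the lowest of the 3 blastoderm values, and Pou5f3 and KLF4 were the highest. The part of that library's other differences in the SOX2 level was not tested.

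Ratios of counts within a library compare the balance of the factors without any library scaling. NANOG had fewer counts than Pou5f3 in PGCs, with ratios of 0.762, 0.705 and 0.894, against 1.53, 1.13 and 0.914 in blastoderms. The mean log2 ratio differed by -0.57, and the groups did not overlap, although PGC replicate 3 and blastoderm replicate 3 lay side by side. Pou5f3 had 35.2 to 55.3 counts for each KLF4 count in PGCs, against 77.0 to 78.7 in blastoderms and 3.21 to 4.24 in CEFs. This ratio was nearly constant among the blastoderm libraries, including replicate 3.

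NANOG had 40.6 to 44.5 counts for each SOX2 count in PGCs, against 95.2 to 444 in blastoderms, and the mean log2 ratio differed by -2.52. Without EGK.X replicate 3 that difference was -3.21. The mean log2 ratio of Pou5f3 to SOX2 differed by -1.95, or by -2.46 without that replicate, and that of NANOG to KLF4 by -1.35, each lower in PGCs without overlap. Since the sign depends on which gene is named first, these values put SOX2 higher in PGCs relative to NANOG and Pou5f3. SOX2 relative to KLF4 was also higher in PGCs, with 0.706 to 0.988 against 0.251 to 0.742 in blastoderms. The mean log2 difference was 1.17, but here the groups overlapped. The overlap came from EGK.X replicate 3, since the ratio was 0.271 and 0.251 in blastoderm replicates 1 and 2, and without it the difference was 1.67. Each of the 5 ratios without overlap had an exact two-sided permutation p of 0.1, the smallest that 3 against 3 libraries allow, or 0.12 after adjustment over 6 ratios, and SOX2 to KLF4 had a p of 0.2. None could therefore pass 0.05 at this size. The 6 ratios are formed from the same few genes, so they are not independent results, and the share of other gene pairs without overlap was not computed.

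**Figure D4:**
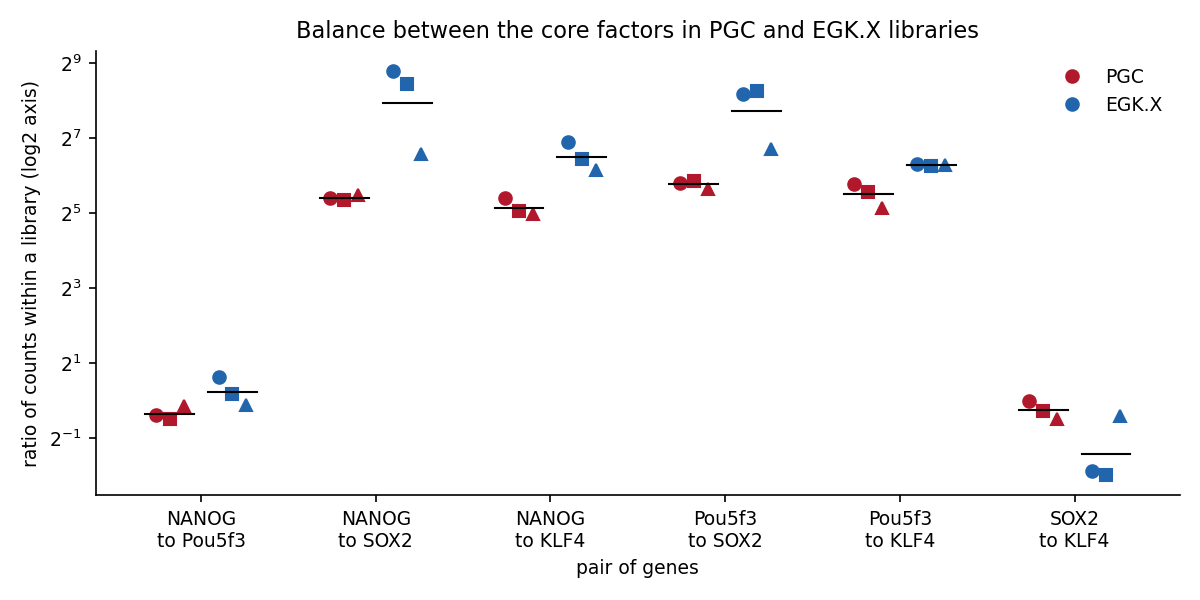
Ratio of the counts of 2 factors within a library, on a log2 axis, for the 6 pairs. Points are single libraries (circle, square and triangle for replicates 1, 2 and 3), with PGCs left of EGK.X blastoderms, and the bars are means of the log2 ratios. All pairs but SOX2 to KLF4 separate the groups. The Pou5f3 to KLF4 ratio of the blastoderms stays between 77.0 and 78.7, a range narrower than the counting error of KLF4.

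NANOG and Pou5f3 had the most similar patterns of the 4. Over the 9 libraries, which are 3 groups of replicates and not independent points, Pearson's r of log2(normalized CPM + 1) was 0.996 for this pair and stayed between 0.995 and 0.997 when any library was left out. Among 13812 genes with a mean of at least 1 normalized CPM, 64 had an r of at least 0.99 with NANOG and 53 with Pou5f3, but 3 with SOX2 and 0 with KLF4. The other pairs had r of 0.922 for Pou5f3 and KLF4, 0.898 for NANOG and KLF4, 0.872 for Pou5f3 and SOX2, 0.868 for NANOG and SOX2, and 0.742 for SOX2 and KLF4. The pairs with SOX2 moved more when any library was left out. Their r ran from 0.835 to 0.922 with Pou5f3, from 0.827 to 0.931 with NANOG and from 0.643 to 0.827 with KLF4.

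Of 148 genes named in the study's pathway tables, those nearest to NANOG were Pou5f3, the stress kinase gene MAPK8 (r = 0.980) and the recombination gene BRCA1 (r = 0.978). Genes near to Pou5f3 were NANOG and MAPK8 (r = 0.978). Genes near to SOX2 were the ubiquitin ligase gene CUL4B (r = 0.949) and BABAM2 (r = 0.937), whose product belongs to a BRCA1 complex. Genes near to KLF4 were the DNA polymerase delta subunit gene POLD2 (r = 0.954) and the helicase gene BLM (r = 0.953). These tables hold mainly DNA repair, apoptosis and pluripotency genes, so the names reflect what could be named. Pearson's r also leaves out the size of a change. CUL4B averaged 207 normalized CPM in PGCs, 195 in blastoderms and 158 in CEFs, against 3.42, 3.13 and 0.0673 for SOX2. MAPK8 averaged 49.0, 68.2 and 28.4 in the same order, against 145.6, 640.5 and 0.0133 for NANOG.

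The 4 factors belong to a list of 25 pluripotency regulating genes. The study selected them as candidates from a larger set of chicken homologs of a pathway map, so the list is not the whole pathway. The remaining 21 are mostly ligands, receptors and kinases of the LIF, BMP, activin, WNT, FGF and IGF signalling routes. In blastoderms against CEFs, 8 genes of the list were called higher and 8 lower, where 23.1% and 21.6% of all genes tested were, with a median log2 fold change of -0.15, against 0.09 over all genes. Without the 4 factors the counts were 4 higher and 8 lower, and the median was -0.41. The 4 others that rose were the WNT ligand gene WNT3A, the WNT receptor gene FZD7, the BMP ligand gene BMP4 and the reprogramming factor gene MYC. WNT3A had the largest rise after NANOG, at 7.82 ± 0.48 (SE, adjusted p = 4.01e-08), with 23.5 to 45.6 normalized CPM in blastoderms and 0.0622 to 0.279 in CEFs. INHBA, which encodes an activin subunit, had the largest fall, with 0 to 0.0303 normalized CPM in blastoderms and 201 to 272 in CEFs.

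In PGCs against CEFs, 4 genes of the list were called higher and 11 lower, where 23.7% and 18.5% of all genes tested were, with a median of -0.88, against 0.05 over all genes. NANOG, Pou5f3 and SOX2 made up 3 of the 4 that rose, and the other was LIFR, the receptor gene of the cytokine LIF, with a log2 fold change of 1.12 ± 0.14 (SE, adjusted p = 2.84e-05). Among the 11, WNT3A had few counts in both groups, with 0.0270 to 0.0684 normalized CPM in PGCs and 0.0622 to 0.279 in CEFs. With libraries scaled by size alone, 6 genes were called higher and 5 lower. The largest fall was again that of INHBA, with 0 to 0.0569 normalized CPM in PGCs and 201 to 272 in CEFs. MYC, a partner of the factors in reprogramming, averaged 17.0 ± 1.77 in PGCs and 80.5 ± 12.2 in CEFs and fell by 2.24 ± 0.25 (SE, adjusted p = 8.37e-06).

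In PGCs against blastoderms, 3 genes of the list were called higher and 8 lower, where 23.4% and 18.5% of all genes tested were, with a median of -0.75, against 0.03 over all genes. LIFR had the largest rise, at 2.63 ± 0.15 (SE, adjusted p = 4e-08), with means of 101.4 ± 12.6 in PGCs and 16.3 ± 0.305 in blastoderms. WNT3A had the largest fall, with 0.0270 to 0.0684 normalized CPM in PGCs and 23.5 to 45.6 in blastoderms. Counts over the list are a description beside those over all genes, and the 2 comparisons with CEFs share the CEF libraries.

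**Figure D5:**
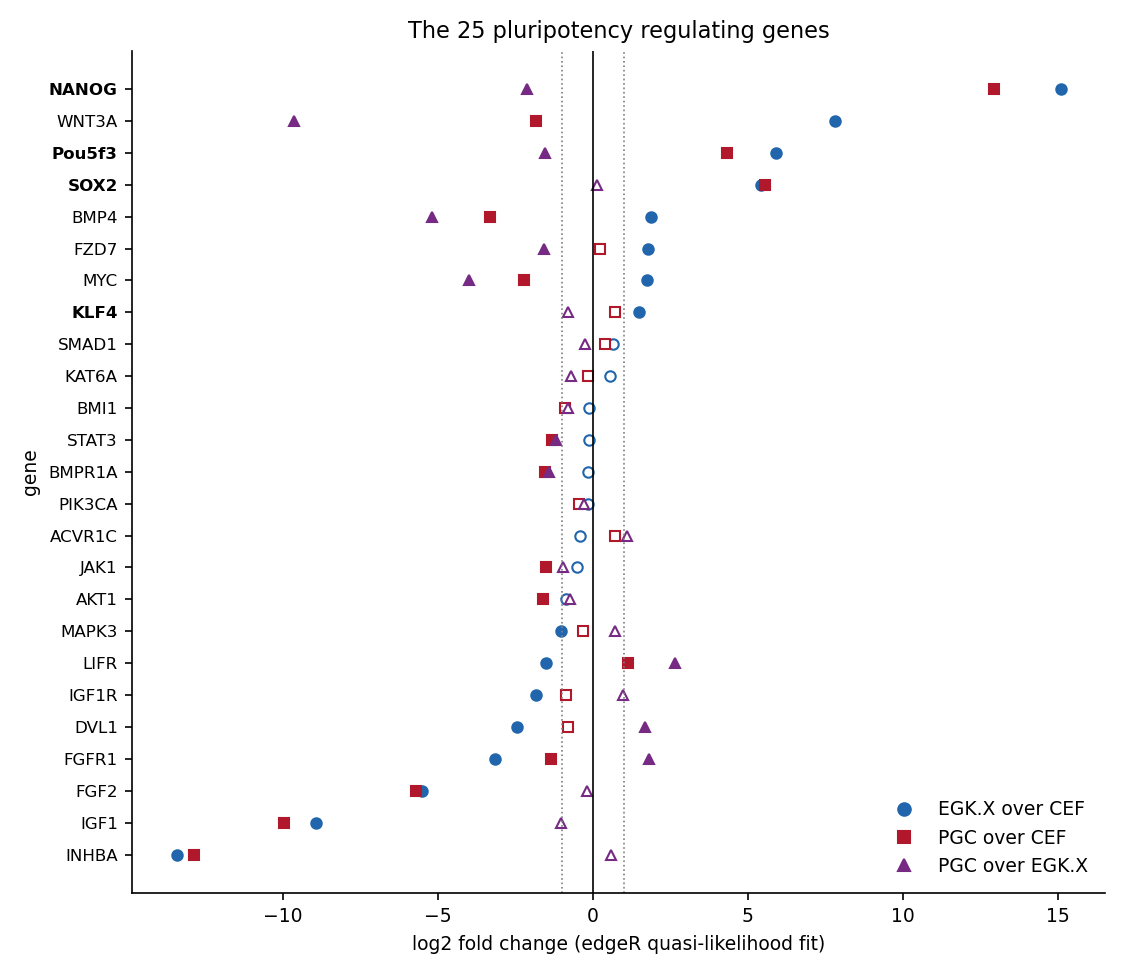
Log2 fold changes of the 25 pluripotency regulating genes in the 3 comparisons, ordered by EGK.X over CEF, with the 4 core factors in bold. Filled symbols passed both thresholds and open symbols did not, and the dotted lines mark -1 and 1. Values of NANOG and SOX2 against CEFs, and of INHBA, IGF1 and WNT3A, rest on few counts in at least 1 of the groups compared. Among the 4 genes higher in PGCs than in CEFs, 3 are core factors.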

How the data were processed

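The members and lists were chosen with earlier results of these data known. The libraries were made with a stranded total RNA kit after rRNA removal. The authors trimmed reads with Trimmomatic 0.39, aligned them to GRCg6a with HISAT2 2.2.0, and used HTSeq to count reads on Ensembl genes. The deposited counts are whole numbers without normalization, and 46.6% to 51.5% of the records of a library, which were not assigned to a gene, were left out. The authors also deposited a signal matrix, counts scaled to TMM-adjusted CPM. Within each library it was proportional to the counts to 3.25e-06%, and its values for the factors matched the normalized CPM computed here.

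Genes with 1 or more counts (22698) entered a single fit of the 9 libraries in edgeR 4.0.16 (R 4.3.3, TMM, group only, prior count 0.125), with the quasi-likelihood test and Benjamini-Hochberg adjustment. The study's likelihood ratio test was an alternative. Each SE was derived from the fold change and the F statistic. Code was tested on simulated data. Likeness used log2(normalized CPM + 1) and named genes with a mean of at least 1, count ratios used a pseudocount of 0.5, and both counting intervals were exact (95%). The 3 genes of highest r were chosen for each factor, of which some are not reported here, and the largest rise and fall of the list for each comparison; MBD4, NEIL3 and the values of MYC were chosen after they were seen. Alternatives covered DESeq2 1.42.0, limma 3.58.1, scaling, filters, thresholds and each library left out. Names came from the study's tables and, for neighbours, from RefSeq (GRCg7b); 0 Ensembl identifiers matched that table directly. Protein and promoter sequences were not used here.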

Additional observations from a re-analysis of the deposited data

How the results depend on the processing

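In 271 of 276 tests of a factor under an alternative, the direction and the call by both thresholds together stayed as reported. Part of this agreement is built in. A larger prior count kept the p-values of the main fit, and some fits left out a library of the group not compared. The adjusted p alone was less stable for KLF4, which already missed the fold threshold in both comparisons of PGCs. In the edgeR fits it exceeded 0.05 for PGCs over CEFs when any PGC or CEF library was left out (0.0535 to 0.108). For PGCs over blastoderms it did so without PGC replicate 1 (0.0796) and with library size alone (0.0622). KLF4 in PGCs over CEFs was called at 1.38 with library size alone and at 0.70 under the adjusted p alone, and KLF4 in PGCs over EGK.X blastoderms at -0.79 under the adjusted p alone. SOX2 in PGCs over blastoderms ranged from -0.20 to 0.98 with 1 library left out and was below 0 in 2 fits (-0.20 and -0.15). Library size alone gave 5 list genes lower in PGCs than in CEFs (11 with TMM factors), and the adjusted p alone 5 higher and 13 lower in PGCs than in blastoderms (3 and 8 with both thresholds). With limma on log2(value + 1), 6596 genes were called between blastoderms and CEFs (10141 in the edgeR fit) and 6255 between PGCs and blastoderms (9500). Library size alone raised the median of all genes to 0.59 for blastoderms over CEFs, 0.73 for PGCs over CEFs and 0.21 for PGCs over blastoderms (0.09, 0.05 and 0.03 with TMM factors), and the share of higher calls to 66.4%, 75.1% and 62.5% (51.7%, 56.2% and 55.8%). It raised r of SOX2 and KLF4 to 0.854. On the log2(value + 1) scale, where low values shrink, limma gave SOX2 1.80 in blastoderms and 2.05 in PGCs over CEFs (5.42 and 5.55 in the edgeR fit) and NANOG 9.30 and 7.18 (15.10 and 12.96). The shares and the variation without EGK.X replicate 3 were added after seeing the data.

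The replicate numbers were not used to pair the samples. Correlations of same-numbered deviations ran from -0.17 to 0.23, and those of unlike numbers from -0.24 to 0.26. Deviations from the mean of a few libraries constrain each other, so this check cannot exclude a pairing. With the replicate block no call of a factor changed, although the adjusted p of KLF4 in PGCs over CEFs was 0.0546, NANOG in PGCs over blastoderms was -2.13 and SOX2 0.28, and 8905 genes were called there (9500 without it). NANOG and SOX2 had few counts in CEFs, so their folds against CEFs rest on 2 and 9 counts there. The CEF libraries held 43511523 to 64953799 counts on genes, against 29512715 to 56255185 in PGCs.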

Other observations

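KLF4 is the only core factor on the Z chromosome, which males carry in 2 copies and females in 1, and the sex make-up of the pools is not given in the sources used here. The other 10 genes of the study's tables on Z had median log2 fold changes of 0.76 in EGK.X blastoderms over CEFs, 0.54 in PGCs over CEFs and -0.30 in PGCs over blastoderms, where KLF4 had 1.49, 0.70 and -0.79. Single genes among the 10 ranged from -1.52 to 2.34, from -0.36 to 2.10 and from -1.41 to 2.63 in these comparisons. Their summed level was 640.3, 608 and 691 normalized CPM in PGCs, 887, 947 and 615 in blastoderms, and 468, 644 and 416 in CEFs. In the blastoderms it was lowest in replicate 3. A sum over these 10 genes does not measure Z copy number, and the part of sex make-up in the KLF4 level was not tested. RAD23B, a nucleotide excision repair gene that lies 40814 bases from KLF4, had log2 fold changes of 0.56, 0.01 and -0.55 in the same order of comparisons. Its adjusted p in the quasi-likelihood test was 0.00373, 0.993 and 0.00433. It was called in none of the 3 comparisons, because it missed the fold threshold where it passed the adjusted p.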
